A study of Mus musculus with 9 samples.

Results

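The genes described here encode the carriers and pumps that move organic ions and drugs across cell membranes. They were taken from a table of FPKM values (reads scaled by gene length and library total) as every row named after the Slc22a, Slc47a, Slco, Abcb, Abcc and Abcg families. The rule found 62 of 26139 rows, with no measured value used to choose them. Of these, 51 reached 0.1 FPKM in at least 3 of 9 libraries and are described, and 42 reached 1 FPKM in at least 3 libraries and entered a test that covered 11617 genes.

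Bulk RNA was sequenced from mouse kidneys, 3 libraries per group. GQYS kidneys came from Itgam-IRES-hCD89 mice, in which human CD89, an Fc receptor for IgA, is placed behind the myeloid gene Itgam, and these mice received Gui-qi-yi-shen granules, a herbal preparation, by daily gavage for 5 months. IgAN kidneys, a model of IgA nephropathy, came from mice of the same genotype that were gavaged with saline. WT kidneys came from C57/BL6 mice without the knock-in, also gavaged with saline. Age, sex and pooling of the mice are not stated in the labels, and p-values measure the spread between libraries, which may be partly technical.

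The proximal tubule clears organic anions and cations from blood into urine in a pair of steps. On the blood side, carriers of the Slc22 family (OAT1, OAT3 and OCT2 are the best known) take substrates up. On the urine side, the proton exchanger MATE1 and ATP-driven pumps of the Abcb, Abcc and Abcg families let them out, while urate and carnitine are reclaimed in the other direction by URAT1 and OCTN2. Slco genes encode the OATP uptake carriers for bile salts, hormones, prostaglandins and drugs.

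The libraries were checked through the genes that mark kidney cell types. Summed FPKM of 6 proximal tubule markers was 2320 to 2569 in GQYS, 2101 to 2400 in IgAN and 2000 to 2633 in WT kidneys, so markers of the tubule segment that carries most of these transporters were high in every library. Itgam, the knock-in locus, was at 0.0283 to 0.143 FPKM in GQYS, 0.172 to 0.433 FPKM in IgAN and 0.340 to 0.716 FPKM in WT kidneys, and its level does not check the genotype. Y-linked Ddx3y was at 5.21 to 10.1 FPKM and Xist at 0 to 0.00730 FPKM across the 9 libraries. Recovered depth was 30564947 to 38161564 reads per library. Libraries WT 1, IgAN 1 and WT 3 stood apart, and their values are set beside the results they touch. WT 1 had 25.5% of its FPKM in mitochondrial genes, against 12.8% to 20.4% in the others. Summed FPKM of 4 tubular injury markers was 5.28 to 8.18 in GQYS, 14.7 to 90.5 in IgAN and 3.53 to 8.33 in WT kidneys, so all 3 IgAN libraries lay above all others. IgAN 1 was the highest and had 43.8 FPKM of Havcr1, the injury marker KIM-1, against 0.116 to 1.79 FPKM elsewhere. Taken singly, only Lcn2 and Vcam1 were higher in all IgAN libraries than in all others. Havcr1 in IgAN 2, at 1.33 FPKM, was below GQYS 3, at 1.41 FPKM. Krt20 in IgAN 2 and IgAN 3, at 0.194 and 0.230 FPKM, was below WT 3, at 0.232 FPKM. Some transporters were also higher or lower in all 3 IgAN libraries, and the part of the injury markers in their values was not tested. WT 3 carried fat markers at a summed 16.8 FPKM, against 0.0182 to 0.539 FPKM elsewhere, and urothelial markers at 14.6 FPKM, against 0.596 to 5.38 FPKM. In bulk tissue, fewer cells of a type and less RNA per cell cannot be told apart.

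Transporter levels spanned several orders of magnitude. Over the 9 libraries, 8 of 62 transporters averaged at least 100 FPKM, 14 averaged 10 to 100, 20 averaged 1 to 10, 8 averaged 0.1 to 1 and 12 less than 0.1 FPKM. The 10 most abundant held 78.8% to 80.9% of the summed transporter FPKM in each library. That sum was 3081, 2928 and 3071 FPKM in GQYS, 2853, 3137 and 3077 FPKM in IgAN and 2735, 3259 and 3181 FPKM in WT kidneys. The group means lay within each other's spread, at 3027 ± 85.7 FPKM in GQYS, 3022 ± 149.7 FPKM in IgAN and 3058 ± 283 FPKM in WT kidneys (SD, n = 3 each).

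**Figure D1:**
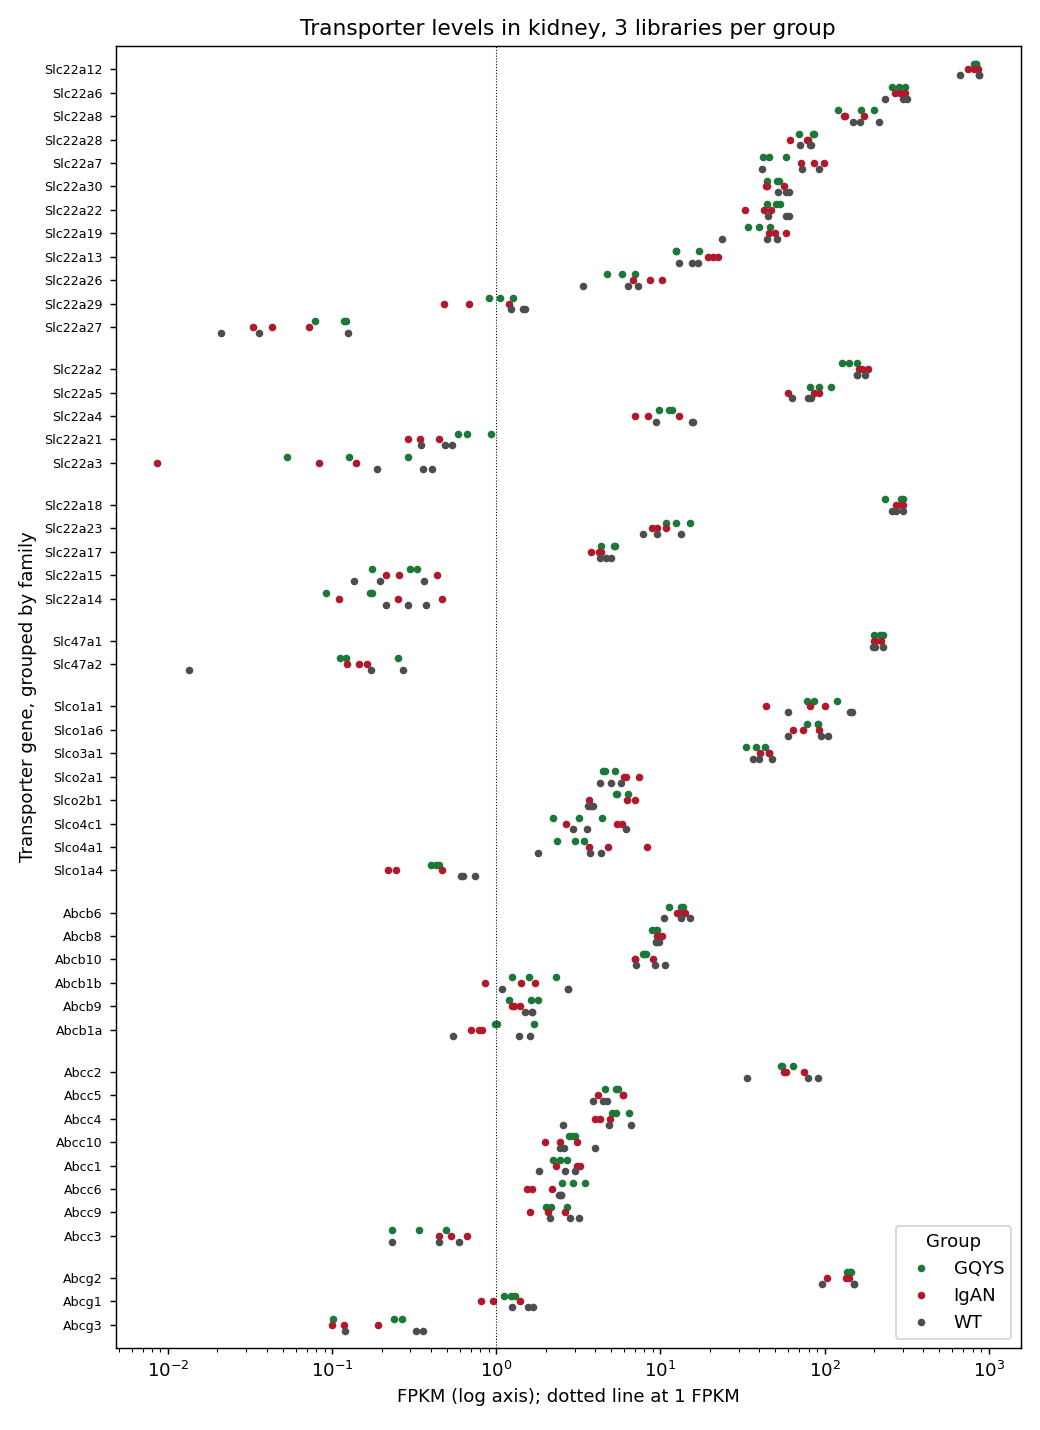
FPKM (log axis) of 49 of the 51 described transporters in each library, 3 points per group, arranged by family and then by mean level. Slc22a12 sits highest at 665 to 878 FPKM, and the dotted line marks 1 FPKM, the level asked of a tested gene.

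The 12 organic anion transporters of Slc22 made up the largest family sum, at 1567 ± 73.4 FPKM in GQYS, 1572 ± 63.6 FPKM in IgAN and 1586 ± 113 FPKM in WT kidneys (SD, n = 3 each). Slc22a12, which encodes URAT1, the apical exchanger that reclaims urate, was the most abundant transporter. It measured 842, 834 and 819.7 FPKM in GQYS, 749.7, 862 and 812 FPKM in IgAN and 665, 878 and 870.2 FPKM in WT kidneys. The lowest values were those of WT 1 and IgAN 1, and the IgAN minus WT log2 change was 0.016 (95% interval -0.27 to 0.30, adjusted p = 0.983). Slc22a6, the OAT1 carrier for para-aminohippurate and many anionic drugs, averaged 283 ± 25.9 FPKM in GQYS, 288 ± 19.2 in IgAN and 284 ± 43.9 in WT kidneys (SD, n = 3 each), with ranges that overlapped throughout.

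Slc22a8 encodes OAT3, the basolateral carrier for bulkier anions such as steroid sulphates. Its values were 167, 122 and 199 FPKM in GQYS, 174, 133 and 132 FPKM in IgAN and 216, 149 and 166 FPKM in WT kidneys. The range within each group was wider than the distance between any pair of group means. The IgAN minus WT log2 change was -0.26 (95% interval -0.72 to 0.19, adjusted p = 0.731), and GQYS minus IgAN gave 0.13 (95% interval -0.32 to 0.58, adjusted p = 0.923). Slc22a8 and Slc22a6 are neighbours on chromosome 19, and they did not share their extremes. WT 1 had the highest Slc22a8 and the lowest Slc22a6.

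Slc22a30, a rodent-specific member of the chromosome 19 cluster, measured 53.0, 44.4 and 51.1 FPKM in GQYS, 44.7, 56.9 and 43.7 FPKM in IgAN and 52.1, 58.0 and 60.5 FPKM in WT kidneys. IgAN 1 and IgAN 3 lay below all WT libraries and IgAN 2 among them, and the IgAN minus WT log2 change was -0.24 (95% interval -0.52 to 0.048, adjusted p = 0.591). Of the 50-base stretches of Slc22a30, 34.1% also occur in other transporters, and of those of Slc22a28, in the same cluster, 53.9%. The pair has 1042 stretches in common, so the division of reads between them is uncertain. Slc22a28 itself measured 61.7 to 85.9 FPKM over the 9 libraries. The related pair Slc22a27 and Slc22a29 has 543 stretches in common, and 29.9% and 28.7% of their stretches occur in any other transporter.

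Slc22a13, the OAT10 exchanger for urate and nicotinate, measured 17.2, 12.4 and 12.5 FPKM in GQYS, 20.9, 19.6 and 22.4 FPKM in IgAN and 16.8, 15.6 and 13.0 FPKM in WT kidneys. All 3 IgAN libraries were above all others, while GQYS and WT values overlapped. Slc22a7, the OAT2 carrier of cyclic nucleotides and prostaglandins, measured 42.3, 45.9 and 58.2 FPKM in GQYS, 99.6, 72.4 and 85.8 FPKM in IgAN and 92.0, 72.7 and 41.4 FPKM in WT kidneys. All GQYS libraries were below all IgAN libraries, and WT ran from just below the GQYS range into the IgAN range.

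Slc22a22, a prostaglandin carrier of the mouse kidney known as OAT-PG, measured 53.4, 44.8 and 50.5 FPKM in GQYS, 32.8, 42.6 and 47.1 FPKM in IgAN and 45.5, 58.1 and 60.6 FPKM in WT kidneys. IgAN was at the low end, with 1 of its 3 libraries above the lowest WT value. The low-level Slc22a29 measured 1.26, 0.902 and 1.06 FPKM in GQYS, 0.478, 0.680 and 1.19 FPKM in IgAN and 1.51, 1.46 and 1.23 FPKM in WT kidneys, and all IgAN values lay below all WT values. Slc22a19, known as OAT5, and Slc22a26, a neighbour of Slc22a19 on chromosome 19, were both lowest in WT 3, at 23.8 and 3.35 FPKM. Their other libraries measured 34.3 to 58.0 FPKM and 4.72 to 10.2 FPKM. WT 3 is the library with fat and urothelial markers, and the part of these in its values was not tested.

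**Figure D2:**
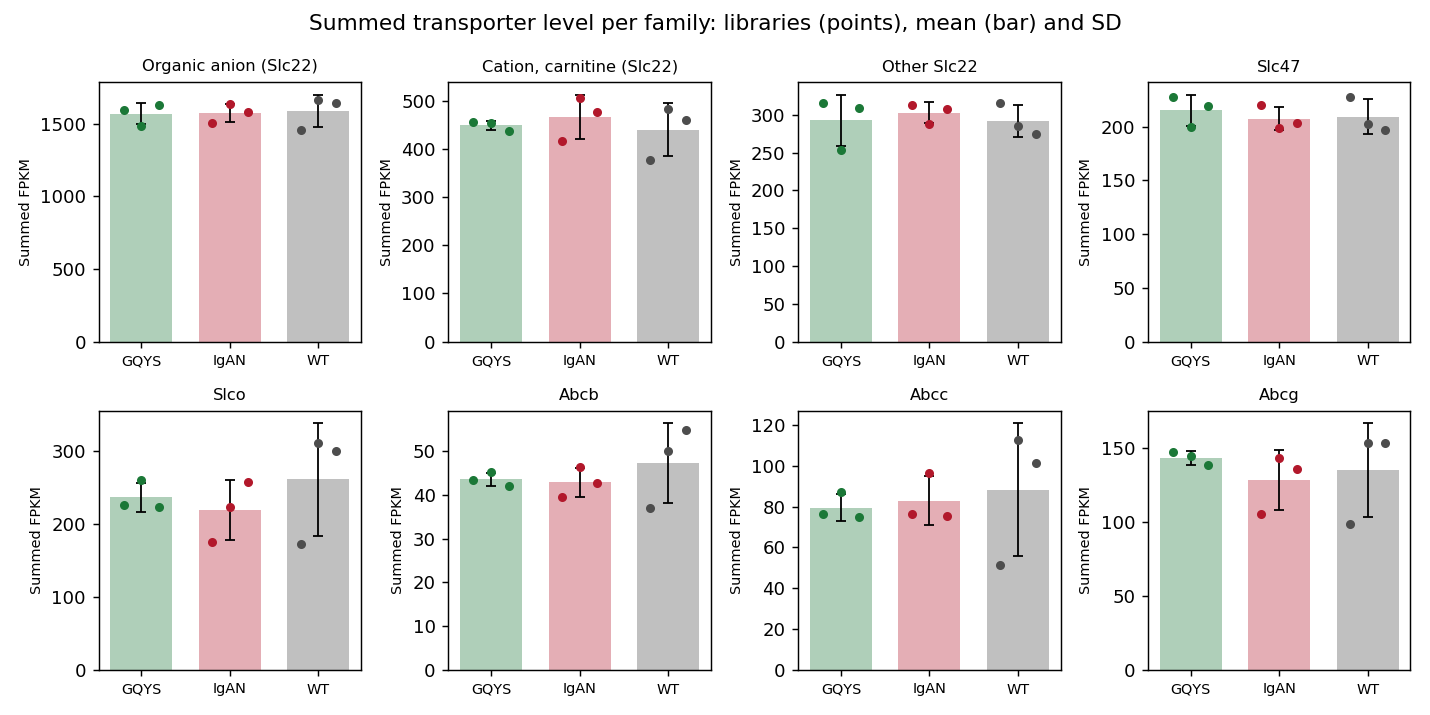
Summed FPKM of each transporter family, with points for the 3 libraries of a group, bars for the mean and whiskers for the SD. The anion transporters sum to 1456 to 1661 FPKM, and the WT 1 point is the lowest of its group in 6 of 8 panels.

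The organic cation and carnitine carriers summed to 449 ± 9.96 FPKM in GQYS, 467 ± 45.7 FPKM in IgAN and 439 ± 54.9 FPKM in WT kidneys (SD, n = 3 each). Slc22a2, the basolateral cation carrier OCT2, measured 158, 128 and 141 FPKM in GQYS, 163, 185 and 170.3 FPKM in IgAN and 157, 178 and 158 FPKM in WT kidneys. All GQYS values were below all IgAN values, and the highest GQYS value was at the WT median. Slc22a5, the apical carnitine carrier OCTN2, measured 92.2, 109 and 82.0 FPKM in GQYS, 59.6, 92.5 and 86.3 FPKM in IgAN and 63.1, 82.5 and 78.8 FPKM in WT kidneys, with 2 GQYS libraries above every WT library. Of its 50-base stretches, 26.2% also occur in other transporters, and 812 occur in Slc22a21, a mouse carnitine carrier. Of the stretches of Slc22a21, 22.0% occur in other transporters. The division of reads between the pair is uncertain, and this bears most on Slc22a21, which measured only 0.290 to 0.933 FPKM. Slc22a4, the ergothioneine carrier OCTN1, measured 11.2, 9.79 and 11.8 FPKM in GQYS, 7.05, 13.0 and 8.45 FPKM in IgAN and 9.42, 15.6 and 15.8 FPKM in WT kidneys, and WT 2 and WT 3 were above all others.

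Among the remaining Slc22 genes, Slc22a18, an imprinted gene of less certain substrate, was the third most abundant transporter at 234 to 302 FPKM. Slc22a23 measured 10.8, 15.2 and 12.4 FPKM in GQYS, 8.92, 9.52 and 10.9 FPKM in IgAN and 7.78, 9.52 and 13.4 FPKM in WT kidneys, with overlapping ranges. Slc47a1 encodes MATE1, the apical proton exchanger that completes cation secretion. It was one of the steadiest transporters, with 227, 199 and 219 FPKM in GQYS, 219.6, 199 and 204 FPKM in IgAN and 227, 203 and 197 FPKM in WT kidneys. Its highest value was 1.15 times its lowest, and the IgAN minus WT log2 change was -0.0095 (95% interval -0.24 to 0.22, adjusted p = 0.985). Slc47a2, the second MATE gene, measured 0.111, 0.121 and 0.251 FPKM in GQYS, 0.163, 0.145 and 0.124 FPKM in IgAN and 0.271, 0.174 and 0.0134 FPKM in WT kidneys, and its lowest value rested on 1 read.

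The OATP genes, whose products take up bile salts, hormones and prostaglandins, had a sum of 237 ± 20.3 FPKM in GQYS, 219.5 ± 41.5 FPKM in IgAN and 262 ± 77.6 FPKM in WT kidneys (SD, n = 3 each). Slco1a1, a bile salt and steroid conjugate carrier that is strongly male-biased in mouse kidney, measured 86.1, 119 and 78.1 FPKM in GQYS, 43.8, 81.9 and 101 FPKM in IgAN and 59.8, 147 and 142 FPKM in WT kidneys. The lowest values were those of IgAN 1 and WT 1, and the highest those of WT 2 and WT 3, a 3.36-fold spread. Its neighbour Slco1a6 measured 59.7 to 104 FPKM, also lowest in WT 1 and then in IgAN 1.

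Slco2a1 encodes the prostaglandin transporter PGT, which takes up prostaglandins for breakdown. It measured 4.49, 5.30 and 4.61 FPKM in GQYS, 7.42, 6.01 and 6.20 FPKM in IgAN and 4.31, 5.75 and 5.03 FPKM in WT kidneys. All IgAN values were above all GQYS and WT values. Slco4a1, a thyroid hormone carrier, had the widest range of the tested transporters at 4.59-fold and measured 3.03, 2.35 and 3.41 FPKM in GQYS, 8.28, 4.81 and 3.69 FPKM in IgAN and 4.36, 3.73 and 1.80 FPKM in WT kidneys. Its highest value was that of IgAN 1, the library with high Havcr1. The other IgAN values of 4.81 and 3.69 FPKM also lay above all GQYS values, and IgAN 3 lay below WT 1 and WT 2. Summed injury markers were 14.7 and 16.0 FPKM in IgAN 2 and IgAN 3, and 5.32 and 8.33 FPKM in WT 1 and WT 2. The part of the injury markers in the Slco4a1 values was not tested. Without IgAN 1 the GQYS minus IgAN log2 change was -0.42, against -0.69 with it. Slco2b1, a carrier of steroid sulphates and many oral drugs, measured 6.37, 5.41 and 5.34 FPKM in GQYS, 3.66, 6.26 and 7.03 FPKM in IgAN and 3.80, 3.89 and 3.60 FPKM in WT kidneys. The GQYS values and 2 of 3 IgAN values were above all WT values, and IgAN 1 was not.

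Among the pumps, the Abcb family summed to 43.5 ± 1.52 FPKM in GQYS, 42.9 ± 3.33 FPKM in IgAN and 47.3 ± 9.15 FPKM in WT kidneys (SD, n = 3 each). Much of this came from Abcb6, Abcb8 and Abcb10, which serve mitochondria and haem handling, at 13.1, 9.56 and 8.23 FPKM over all libraries. Abcb8 was the steadiest transporter tested, with a 1.15-fold range. The multidrug pumps of P-glycoprotein, Abcb1a and Abcb1b, were low. Abcb1a measured 1.70, 1.004 and 0.980 FPKM in GQYS, 0.701, 0.788 and 0.820 FPKM in IgAN and 0.543, 1.38 and 1.61 FPKM in WT kidneys, with all GQYS values above all IgAN values. Abcb1b measured 2.31, 1.24 and 1.58 FPKM in GQYS, 1.41, 1.72 and 0.857 FPKM in IgAN and 1.08, 2.75 and 2.74 FPKM in WT kidneys, highest in WT 2 and WT 3. Of their 50-base stretches, 17.6% and 11.2% also occur in other transporters. The pair has 889 stretches in common, so the division of reads between them is uncertain. P-glycoprotein also marks endothelium, and the summed endothelial markers were 106.6 to 111 FPKM in GQYS, 78.7 to 88.3 FPKM in IgAN and 89.0 to 99.3 FPKM in WT kidneys. Their part in the Abcb1a values was not tested.

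The Abcc family was carried by Abcc2, the apical conjugate pump MRP2, which measured 54.7, 64.7 and 54.0 FPKM in GQYS, 56.5, 74.7 and 58.5 FPKM in IgAN and 33.6, 91.3 and 79.8 FPKM in WT kidneys. WT held both the lowest value, in WT 1, and the highest. Abcc4, the apical pump MRP4 for urate and cyclic nucleotides, measured 5.04, 6.41 and 5.39 FPKM in GQYS, 3.99, 4.95 and 4.26 FPKM in IgAN and 2.56, 4.85 and 6.66 FPKM in WT kidneys. All GQYS values were above all IgAN values, while WT spanned both. Abcc6, a pump whose loss causes tissue calcification through a lack of pyrophosphate, measured 3.46, 2.52 and 2.95 FPKM in GQYS, 1.53, 2.19 and 1.65 FPKM in IgAN and 2.47, 2.49 and 2.41 FPKM in WT kidneys. The ranges of the groups did not overlap: GQYS was highest, WT in between with an SD of 0.0429 FPKM, and IgAN lowest. The lowest GQYS value, 2.52 FPKM, was only just above the highest WT value, 2.49 FPKM. In limma the GQYS minus WT log2 change of Abcc6 was 0.20 (adjusted p = 0.9995). How many of all tested genes had groups fully apart in this way was not counted. Abcg2, the apical urate and drug pump BCRP, made up nearly all of the Abcg sum and measured 146, 143 and 137 FPKM in GQYS, 104, 142 and 135 FPKM in IgAN and 97.0, 151 and 151 FPKM in WT kidneys. Again WT 1 and IgAN 1 were the lowest, and the SD of the GQYS values was 4.58 FPKM.

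**Figure D3:**
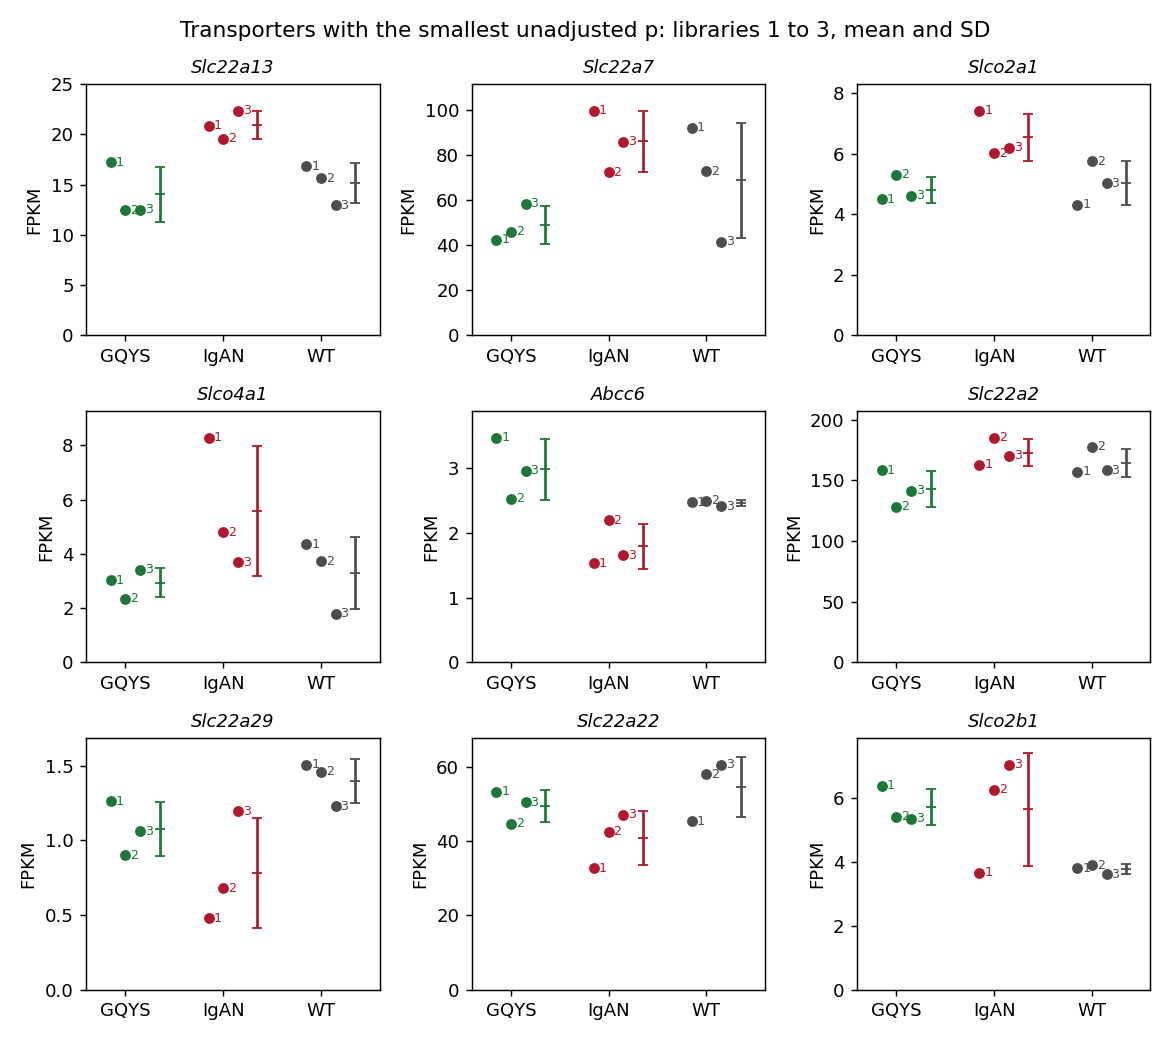
FPKM of the 9 tested transporters with the smallest unadjusted p in IgAN against WT or GQYS against IgAN, each library numbered by replicate, with mean and SD at the right of each group. Slc22a13 and Slco2a1 are highest in all 3 IgAN libraries, and Abcc6 is lowest there.

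The IgAN against WT comparison asks how the knock-in kidney differs from the normal one. No transporter passed an adjusted p of 0.05 in limma (0 of 42), where 0.353% of all tested genes did, and 0 passed with voom on recovered reads. At an unadjusted p below 0.05 there were 8 transporters (19.0%), against 10.3% of all genes. That count rested on single libraries: it was 17 without WT 1 (19.8% of all genes), 5 without WT 2 (8.42%), 2 without WT 3 (9.61%) and 3 without IgAN 1 (7.88%). Of the 8 transporters, 4 were higher in IgAN, against 6.97% of all genes, and 4 were lower, against 3.37%. Quality weights count WT 1 and IgAN 1 less and WT 2 most. With them 3 passed the adjusted threshold, Slco2b1 (higher), Abcb1b and Slc22a4 (lower), but so did 655 of all genes. The 3 libraries of each group were fully apart for 5 transporters (11.9%), against 14% of all genes. The 2 higher in IgAN were Slc22a13 and Slco2a1, against 9.18% of all genes, and the 3 lower were Abcb9, Abcc6 and Slc22a29, against 4.8%. Abcb9, a lysosomal peptide transporter, measured 1.25, 1.27 and 1.39 FPKM in IgAN and 1.504, 1.66 and 1.64 FPKM in WT kidneys.

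The smallest p of the 42 tested transporters in this comparison belonged to Slc22a13, which averaged 20.9 ± 1.40 FPKM in IgAN and 15.1 ± 1.99 FPKM in WT kidneys (SD, n = 3 each), log2 change 0.45, SE 0.15, adjusted p = 0.281. Slc22a29 averaged 0.784 ± 0.369 FPKM in IgAN and 1.40 ± 0.149 FPKM in WT kidneys, log2 change -0.44, SE 0.15, adjusted p = 0.302. At so low a level the value depended on the pseudocount, and it was -0.84 (adjusted p = 0.308) with 0.1 added in place of 1. None of these differences held after adjustment. Among the prostaglandin carriers the sign differed between genes, with log2 change 0.33, SE 0.13, adjusted p = 0.386 for Slco2a1 and log2 change -0.42, SE 0.16, adjusted p = 0.362 for Slc22a22. Abcc6 gave log2 change -0.32, SE 0.13, adjusted p = 0.401, Slco2b1 gave log2 change 0.44, SE 0.18, adjusted p = 0.422 and Slc22a26 gave log2 change 0.56, SE 0.24, adjusted p = 0.445. Abcg1, a cholesterol exporter found in macrophages among other cells, gave log2 change -0.29, SE 0.13, adjusted p = 0.479 beside summed macrophage markers of 37.9 to 51.7 FPKM in IgAN and 21.4 to 42.7 FPKM in WT kidneys. On the log2(FPKM + 1) scale the largest changes, those of Slco4a1 at 0.61 and Slco1a1 at -0.59, came with adjusted p of 0.510 and 0.656. By the plain ratio of mean FPKM, Slc22a29 at 0.561, Slco4a1 at 1.70 and Abcb1b at 0.607 were farther from 1 than Slco1a1 at 0.650. The median log2 change of the 42 transporters was -0.0094, against 0.021 over all tested genes, and the median size without sign was 0.194 against 0.119. That size was also larger for the transporters in the other comparisons, so it is not particular to IgAN against WT. A log2 change above 0 was seen for 20 of 42, against 54.7% of all genes.

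GQYS against IgAN asks what the granules were associated with in knock-in kidneys, and it shares the IgAN libraries with the comparison above. Again 0 of 42 transporters passed the adjusted threshold, where 0.198% of all tested genes did, and voom also gave 0. Unadjusted, 6 transporters (14.3%) were below 0.05, against 10.4% of all genes. Only Abcc6 among them was higher in GQYS, where 5.53% of all genes were, and 5 were lower, against 4.9%. With 1 library left out, the unadjusted count ran from 4 without GQYS 1 (8.04% of all genes) to 9 without WT 3 (10.3%). It was 11 with quality weights (19.2%) and 17 with each library's mitochondrial share as a covariate (27.7%). With quality weights, Abcc6 and Slc22a13 passed the adjusted threshold, as did 404 of all genes. Fully separate libraries were seen for 9 transporters (21.4%), against 19.1% of all genes. The 4 higher in GQYS were Abcb1a, Abcc4, Abcc6 and Slc22a17, known as a lipocalin receptor, against 9.84% of all genes. The 5 lower were Slc22a13, Slc22a2, Slc22a7, Slco2a1 and Slco4a1, against 9.29%.

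Abcc6 averaged 2.98 ± 0.470 FPKM in GQYS and 1.79 ± 0.351 FPKM in IgAN kidneys (SD, n = 3 each), log2 change 0.51, SE 0.13, adjusted p = 0.173. Slc22a13 averaged 14.1 ± 2.75 FPKM in GQYS and 20.9 ± 1.40 FPKM in IgAN kidneys, log2 change -0.56, SE 0.15, adjusted p = 0.191. Those were the smallest p-values of the 42 tested transporters in any comparison, and neither passed. On the log2(FPKM + 1) scale Slc22a7 had the largest change, averaging 48.8 ± 8.36 FPKM in GQYS and 85.9 ± 13.6 FPKM in IgAN kidneys, log2 change -0.81, SE 0.26, adjusted p = 0.298. Slco2a1 gave log2 change -0.38, SE 0.13, adjusted p = 0.323, Slc22a2 gave log2 change -0.28, SE 0.11, adjusted p = 0.412 and Slco4a1 gave log2 change -0.69, SE 0.28, adjusted p = 0.431. By the plain ratio of mean FPKM, Slco4a1 at 0.524 was farther from 1 than Slc22a7 at 0.568. The median log2 change was 0.055, against 0.0064 over all tested genes, and the median size without sign was 0.181 against 0.116. Transporters with a log2 change above 0 numbered 25 of 42, against 51.6% of all genes.

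**Figure D4:**
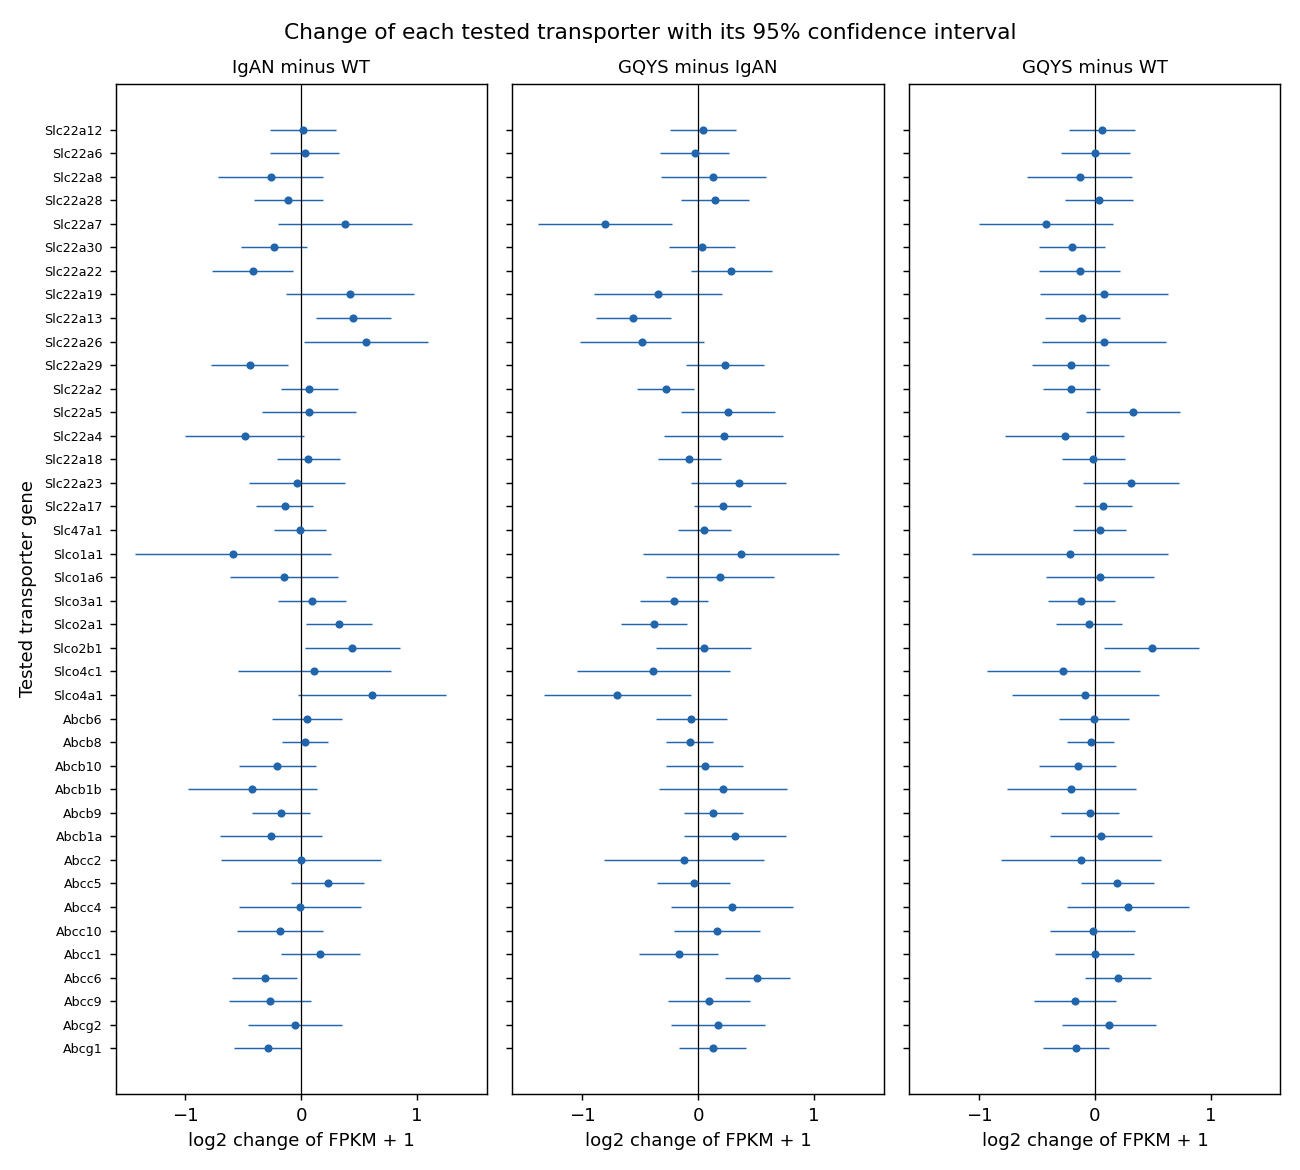
Log2 change of FPKM + 1 with its 95% confidence interval for 40 of the 42 tested transporters in IgAN minus WT, GQYS minus IgAN and GQYS minus WT, ordered by family. The interval of Slc22a7 reaches from -1.38 to -0.23 in GQYS minus IgAN, and the abundant Slc22a12, Slc22a6 and Slc47a1 lie near 0 in all 3 panels.

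GQYS against WT compares the treated knock-in kidney with the normal one and shares libraries with both other comparisons. No gene of the whole table passed the adjusted threshold (0% of 11617), so 0 of 42 transporters did. With quality weights 53 of all genes passed, and still 0 transporters. Slco2b1 was the 1 transporter (2.38%) below an unadjusted p of 0.05, against 4.43% of all genes. The count was 6 without WT 1 (9.31% of all genes), 3 without WT 3 (4.33%), 2 without IgAN 1 (4.65%) and 14 with quality weights (24.9%). In the main fit Slco2b1 was higher in GQYS, as were 3.33% of all genes, while 0 transporters and 1.1% of all genes were lower. Slco2b1 averaged 5.71 ± 0.576 FPKM in GQYS and 3.77 ± 0.147 FPKM in WT kidneys (SD, n = 3 each), log2 change 0.49, SE 0.18, adjusted p = 0.9995. Slco2b1 and Abcc6 were the 2 transporters (4.76%) with fully separate libraries, against 9.74% of all genes. Both were higher in GQYS, against 7.14% of all genes, and 0 were lower, against 2.61%. The next smallest p-values were those of Slc22a2 at a log2 change of -0.21, Slc22a5 at 0.33, Slc22a23 at 0.31, Slc22a7 at -0.42 and Slc22a30 at -0.20, each with an adjusted p of 0.9995. Slc22a7 was at -0.18 without WT 1 and -0.75 without WT 3, and Slc22a23 at 0.15 and 0.51 without the same libraries. The median log2 change was -0.029, against 0.029 over all tested genes, and 17 of 42 were above 0, against 59.3% of all genes. The median size without sign was 0.120 against 0.087.

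The widths of the intervals set what these libraries could show. For the steady genes they were narrow: the log2 change of Slc47a1 in GQYS minus WT was 0.043 (95% interval -0.19 to 0.27, adjusted p = 0.9995). For Slco1a1 in IgAN minus WT the value was -0.59 (95% interval -1.43 to 0.26, adjusted p = 0.656). Between libraries, 16 of the 42 tested transporters ranged over more than 2-fold and 13 over less than 1.5-fold. The median coefficient of variation within a group was 10.7% in GQYS, 15.8% in IgAN and 18.0% in WT kidneys.

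**Figure D5:**
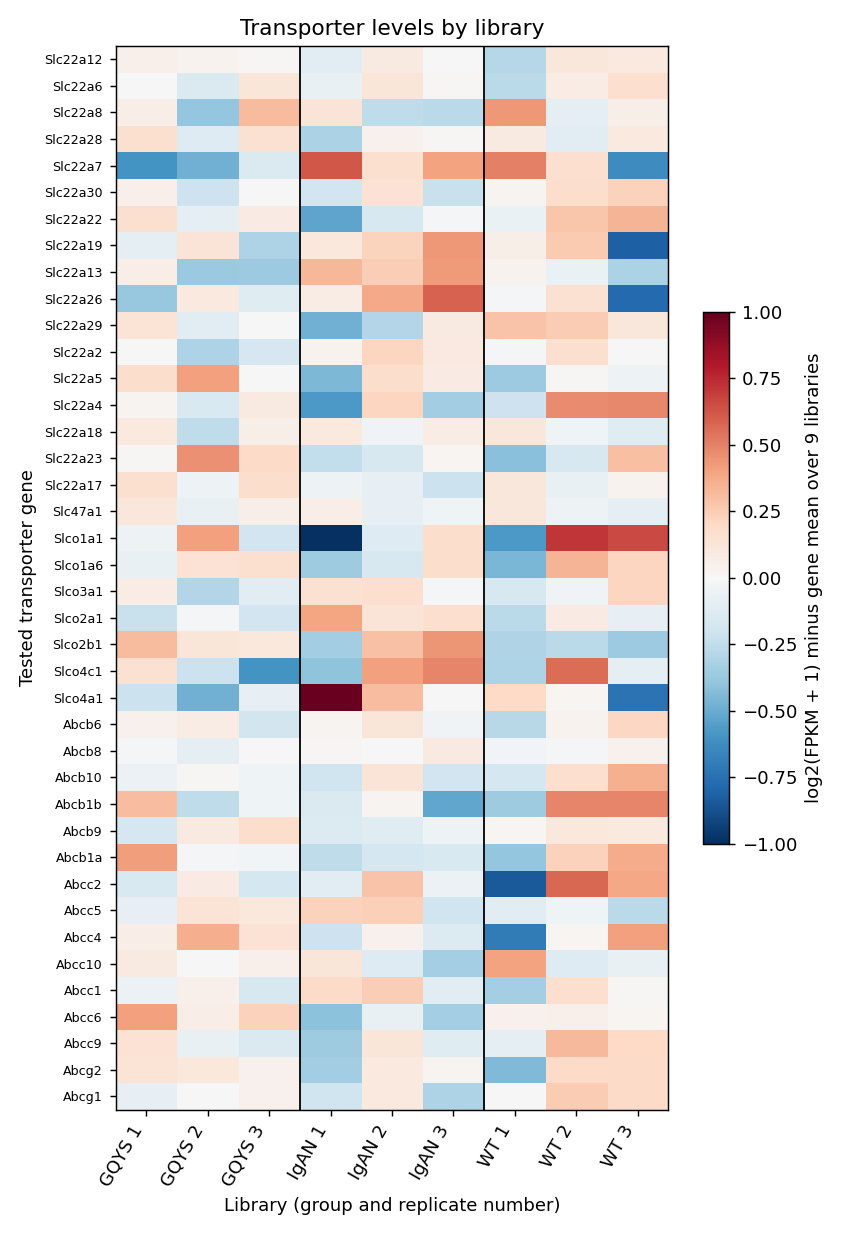
Level of 40 of the 42 tested transporters in each library as log2(FPKM + 1) minus the gene's mean over the 9 libraries, with the colour scale limited to -1 and 1. The WT 1 and IgAN 1 columns are blue for many genes, while WT 2 is mostly red.

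Single libraries held many of the extremes. WT 1 had the lowest value of 12 of the 42 transporters (28.6%, against 34.7% of all tested genes) and IgAN 1 of 10 (23.8%, against 10.8%). WT 3 had the highest value of 10 (23.8%, against 13.1%) and the lowest of 7 (16.7%, against 13.5%). The proximal tubule receptor Lrp2 was also lowest in WT 1, at 91.9 FPKM, against 117 to 222 FPKM in the others. Of the other proximal tubule markers, Cubn and Slc13a1 were lowest there too, at 30.6 and 122 FPKM. Slc34a1 was lowest in WT 2, at 1437 FPKM, and Slc5a2 and Slc5a12 in IgAN 1, at 206 and 33.2 FPKM. Without any 1 library, 0 transporters passed in each comparison. With each library's mitochondrial share, highest in WT 1, as a covariate, 3 transporters and 636 of all genes passed in IgAN against WT, 3 and 308 in GQYS against IgAN, and 0 and 0 in GQYS against WT. The part of the fat and urothelial markers in the transporter values was not tested.

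The 9 transporters described but too low to be tested averaged under 1 FPKM. Slco1a4, an OATP best known from liver and the blood-brain barrier, measured 0.399, 0.427 and 0.451 FPKM in GQYS, 0.219, 0.246 and 0.467 FPKM in IgAN and 0.606, 0.740 and 0.625 FPKM in WT kidneys. Its IgAN minus WT log2 change was -0.34 with an adjusted p of 0.150, in a fit that took genes from 0.1 FPKM. In the same fit, Slc22a21 gave log2 change 0.34, SE 0.094, adjusted p = 0.205 for GQYS minus IgAN, with 0.587, 0.665 and 0.933 FPKM in GQYS and 0.445, 0.345 and 0.290 FPKM in IgAN kidneys. Its reads are uncertain, because 22.0% of its 50-base stretches occur in other transporters, mostly in the far more abundant Slc22a5. Slc22a3, the cation carrier OCT3, gave log2 change -0.29, SE 0.093, adjusted p = 0.283 for IgAN minus WT on 15, 10 and 1 reads in IgAN and 44, 25 and 44 reads in WT kidneys. None of them passed, and on the log2(FPKM + 1) scale changes of such low genes are understated. Abcc3, Slc22a15, Slc22a14, Abcg3, Slc47a2 and Slc22a27 completed this set.

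Slc22a27 was the member just inside the limit, with a third-highest value of 0.118 FPKM, and Slco1b2, a liver OATP, was just outside with 0.0708 FPKM. The other 10 transporters below the limit were Abcb4, Abcb11, Abcc8, Abcc12, Abcg4, Abcg5, Abcg8, Slco1a5, Slco1c1 and Slco5a1. Abcb4 and Abcb11 are the phospholipid and bile salt pumps of the hepatocyte, and Abcg5 and Abcg8 form its sterol pump. Their highest library values were 0.0992, 0.0272, 0.0652 and 0.0489 FPKM.

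The transporters work with other genes, and a list of 46 such partners was examined: co-transporters that set the driving gradients, scaffold proteins, further bile acid, nucleoside and peptide carriers, and the nuclear factors that govern transporter expression. Of these, 44 were in the table and 37 were tested, and 0 passed in either direction in any comparison. Unadjusted p was below 0.05 for 3 partners in IgAN against WT, 5 in GQYS against IgAN and 3 in GQYS against WT, where 10.3%, 10.4% and 4.43% of all genes were. The medians of log2 change were 0.017, -0.043 and 0.0093 in that order, against 0.021, 0.0064 and 0.029 over all tested genes.

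Slc10a2, the apical sodium-dependent bile acid carrier, had the smallest p of the partners. It averaged 17.1 ± 2.68 FPKM in GQYS, 25.5 ± 2.17 FPKM in IgAN and 17.1 ± 0.545 FPKM in WT kidneys (SD, n = 3 each), with a log2 change of 0.55 in IgAN minus WT (adjusted p = 0.113) and -0.56 in GQYS minus IgAN (adjusted p = 0.138). Slc28a1, a sodium-driven nucleoside carrier, averaged 4.005 ± 0.358 FPKM in GQYS, 3.51 ± 0.342 FPKM in IgAN and 4.98 ± 0.555 FPKM in WT kidneys. Its log2 change was -0.41 in IgAN minus WT (adjusted p = 0.218) and -0.26 in GQYS minus WT (adjusted p = 0.9995). All its GQYS values also lay below all WT values, as in 2.61% of all tested genes. Slc9a3, the sodium-proton exchanger NHE3, averaged 19.3 ± 1.999 FPKM in GQYS, 15.3 ± 2.29 FPKM in IgAN and 19.7 ± 1.36 FPKM in WT kidneys. Its log2 change was -0.35 in IgAN minus WT (adjusted p = 0.340) and 0.33 in GQYS minus IgAN (adjusted p = 0.403). The IgAN libraries of all 3 genes, the partners with the smallest p in that comparison, were apart from those of WT, as in 14% of all tested genes.

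Nr1i2, the xenobiotic receptor PXR, averaged 3.21 ± 0.958 FPKM in GQYS, 2.03 ± 0.926 FPKM in IgAN and 1.82 ± 0.257 FPKM in WT kidneys (SD, n = 3 each). Its log2 change was 0.50 in GQYS minus IgAN (adjusted p = 0.487) and 0.56 in GQYS minus WT (adjusted p = 0.9995). The ranges of Nr1i2 overlapped between GQYS and IgAN and were apart between GQYS and WT. Abcb1a, a known target of PXR, gave 0.32 (95% interval -0.12 to 0.76, adjusted p = 0.661) in GQYS minus IgAN, where all GQYS values were above all IgAN values, and 0.054 (95% interval -0.39 to 0.49, adjusted p = 0.9995) in GQYS minus WT. Abcb1a was picked singly, and other transporters did not all go with it. In the same order of comparisons, Abcc2 gave -0.12 and -0.12 in limma (adjusted p = 0.969 and 0.9995). In the fit that took genes from 0.1 FPKM, Abcc3 gave -0.19 and -0.069, and Slco1a4 gave 0.13 and -0.22. Targets of PXR were not examined as a set, and a link between Nr1i2 and Abcb1a was not tested.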

How the data were processed

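Per the labels' protocols, RNA of 9 kidney samples was extracted with TRIzol and prepared with a VAHTS Universal V6 kit. The authors deposited FPKM for 26139 symbols. Named in the submitters' processing notes are GRCm39, fastp, HISAT2, HTSeq, DESeq2 and R 3.2.0, without roles. Annotation and strand setting are not stated there, so overlapping antisense genes cannot be told apart, and FPKM is relative to each library's total.

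Steps in the low values gave whole reads for 26139 genes (tolerance 0.03 reads), and depths from the steps differed by at most -0.0108% from the recovered totals. Genes at 1 FPKM or more in at least 3 libraries were tested with limma 3.58.1 (R 4.3.3, mean-variance trend, all 9 libraries) on log2(FPKM + 1), with Benjamini-Hochberg adjustment over 11617 genes and a threshold of 0.05, after a test on simulated data. Shared stretches of 50 bases come from GENCODE M21 transcripts. Figures used matplotlib 3.10.9.

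Named were Slc22a8, Slc22a30, the 6 smallest p-values per comparison, the 10 highest means, the 6 widest ratios and, among partners, the 4 smallest p-values. Some genes that this rule names are not reported here. Other members were described by family, some picked for their values. Members and lists were chosen with earlier results of these data known. Alternatives covered pseudocount, filter, scaling, samples fitted, library weights, mitochondrial share, replicate block and each library left out, and voom with upper-quartile scaling was added after seeing the data.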

Additional observations from a re-analysis of the deposited data

How the results depend on the processing

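Across 20 alternative settings, the count of transporters passing an adjusted p of 0.05 in limma stayed at 0 in GQYS against WT. In IgAN against WT it became 3 under quality weights, and 3 when each library's mitochondrial share entered as a covariate. The first 3 were Abcb1b (log2 change -0.79, adjusted p = 0.0309), Slc22a4 (-0.68, 0.0289) and Slco2b1 (0.59, 0.0369), and the others Abcb10 (-0.40, 0.0459), Slc22a4 (-0.77, 0.0392) and Slc22a7 (0.73, 0.0445). In GQYS against IgAN it became 2 with quality weights, Abcc6 (0.55, 0.0228) and Slc22a13 (-0.60, 0.0341), and 3 with the covariate, Abcc4 (0.56, 0.0462), Slc22a13 (-0.63, 0.0483) and Slc22a7 (-1.08, 0.0194). Over all genes these settings called 655 and 636 in IgAN against WT, where 41 were called otherwise, and 404 and 308 in GQYS against IgAN, where 23 were. In GQYS against WT they called 53 and 0, where 0 were. The weights were 0.171 for WT 1 and 0.453 for IgAN 1. In the other 18 settings the transporter counts were 0 in each comparison, also with each library left out (range 0 to 0) and with voom on recovered reads, where 27, 17 and 0 of all genes passed. Genes called overall ranged from 14 to 65 in IgAN against WT from 6 to 54 in GQYS against IgAN and from 0 to 1 in GQYS against WT with 1 library left out. The median log2 change of transporters in IgAN against WT moved to -0.12 with the covariate, beyond the SD of library medians of 0.106. The cause was not tested.

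Of 23 single-gene changes, 13 moved by over 1.5 times with some library left out, and 1, Slc22a29 in IgAN against WT, with a pseudocount of 0.1. Of the compared values, 445 kept their direction and side of the threshold, 5 passed it anew and 10 changed sign, all 10 for changes that passed no threshold. Slc22a30 in GQYS against IgAN was -0.013, -0.014 and -0.029 without GQYS 1, IgAN 1 and IgAN 3, and -0.014 without both WT 1 and IgAN 1 (-0.029 to 0.16 over all libraries left out in turn). Slc22a8 in GQYS against IgAN was -0.041 with the covariate and -0.028 without GQYS 3 (-0.028 to 0.32). In GQYS against WT, Slc22a8 was 0.19 with quality weights, 0.061 without GQYS 2, 0.021 without WT 1 and 0.021 without both WT 1 and IgAN 1 (-0.29 to 0.061).

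A replicate block left 0 transporters passing in each comparison, with 68, 26 and 0 of all genes. Libraries of the same number correlated in their deviations at 0.58, 0.47 and 0.078 in IgAN and WT, 0.22, 0.35 and -0.10 in GQYS and IgAN, and 0.32, 0.39 and -0.36 in GQYS and WT, so the numbers were not taken as pairs. Voom with TMM scaling was not run. Depth limited the values of Slc22a3, Slc47a2 and Slc22a27, which rested on few reads.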
